A study of Mus musculus with 4 samples.

Results

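Interferon-γ (IFNγ) and the cytokines that call for it, IL-12 and IL-18, were followed here through 9 genes in tumor-infiltrating leukocytes of the mouse. The genes were chosen by name, though with earlier results of these data known: Ifng, Tbx21, Il12rb1, Il12rb2, Stat4, Il12b, Il18, Il18r1 and Il18rap. All 9 were found by symbol among the 32285 genes of the deposited matrix. The data are single-cell counts of unique molecular identifiers (UMIs, 1 per captured RNA molecule) from live CD45+ cells sorted from subcutaneous KPC tumors of C57BL/6 mice. KPC is a mouse pancreatic cancer line, and every group bore the same tumor. The 4 groups were untreated tumors, tumors after a STING agonist, tumors after an LTβR agonist, and tumors after both agonists, called the combination. The STING agonist is a cyclic dinucleotide made to switch on the interferon-inducing protein STING. The LTβR agonist is an agonistic antibody to the lymphotoxin-β receptor. Each group is 1 library made from pooled tumors, so that animals cannot be told apart, no spread between replicates exists and no p-value is given. Intervals in parentheses are 95% intervals that cover counting error only.

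In a type 1 immune response, dendritic cells and macrophages release IL-12, a heterodimer whose p40 chain is encoded by Il12b, and IL-18, which is made as an inactive precursor and cleaved by caspase-1. IL-12 binds a receptor of the chains Il12rb1 and Il12rb2 on T and NK cells and activates the transcription factor STAT4. IL-18 binds Il18r1, which signals only with its partner chain Il18rap. STAT4 and T-bet (Tbx21), the defining transcription factor of type 1 lymphocytes, act on Ifng. IFNγ in turn acts on myeloid cells, where it raises antigen presentation and the chemokines that attract T cells.

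Quality limits left 23011 of 24839 barcodes, with 3748 to 7147 cells and 32529174 to 60770280 deposited UMIs per library. T-like cells numbered 1870, 1256, 1962 and 1794. Every list of 4 values keeps this order of libraries: untreated first, then STING agonist, then LTβR agonist, then combination. NK-like cells numbered 496, 278, 733 and 384, dendritic-like cells 661, 210, 457 and 248, and macrophage- or monocyte-like cells 3101, 1494, 2979 and 1863. The classes were rebuilt from RNA, with the 9 genes left out of the clustering. Their markers matched the names: a Cd3e UMI was found in 78.1% to 84.3% of T-like cells and 4.90% to 8.33% of NK-like cells, Klrb1c in 66.3% to 80.7% of NK-like cells, Flt3 in 48.4% to 59.0% of dendritic-like cells and Csf1r in 83.4% to 90.7% of macrophage- or monocyte-like cells. Within a class the same name did not stand for the same mixture of cells. The cluster holding most T-like cells was cluster 0 in the untreated and combination libraries and cluster 3 in both others, and the macrophage- or monocyte-like class was led by cluster 1, 1, 2 and 4. Between 104 and 157 barcodes per library also occurred in another library, and without them every class ratio stayed within its counting interval. T-like sub-cluster 3 carried myeloid genes such as Cd74, H2-Aa and Lyz2 together with T genes, and dendritic-like sub-cluster 6 carried Cd3g, Cd3d and Gzmb, so ratios of the 9 genes that rest on either, and those of some list genes, are also given without it.

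The genes lie on 6 chromosomes in the mm10 (GRCm38) annotation, and all 9 are protein-coding. Ifng (ENSMUSG00000055170) spans chr10:118441046-118445892 on the plus strand. Il12b (ENSMUSG00000004296) and Tbx21 (ENSMUSG00000001444) lie on chromosome 11, at chr11:44400063-44414033 on the plus strand and chr11:97098071-97115331 on the minus strand. Il12rb1 (ENSMUSG00000000791) spans chr8:70808449-70821424 on the plus strand and Il12rb2 (ENSMUSG00000018341) chr6:67291318-67376188 on the minus strand. Il18 (ENSMUSG00000039217) spans chr9:50554827-50581840 and Stat4 (ENSMUSG00000062939) chr1:51987148-52107189, both on the plus strand. The 2 chains of the IL-18 receptor are neighbors on the plus strand of chromosome 1, with Il18r1 (ENSMUSG00000026070) at chr1:40465552-40500854 and Il18rap (ENSMUSG00000026068) at chr1:40515362-40551705, and 14507 bases lie between them. Promoters, taken as 250 bases before to 50 after the start site, were read from RefSeq (GRCm38.p6) for 8 of the 9 genes. They are printed for Ifng and Il12rb2, the 2 of 8 genes that were lower by over 1.5-fold in T-like cells of the LTβR agonist library (where 8.43% of all genes with as many UMIs passed 1.5-fold in either direction), and for Il12b, the ligand gene. Capitals in the first and second mark the letters TTCNNNGAA, known as the GAS element to which STAT proteins bind, and in the third GAGGAA or its reverse complement TTCCTC, the core bound by the myeloid factor PU.1. Both strands were searched.
Ifng promoter, chr10:118440796-118441095, plus strand: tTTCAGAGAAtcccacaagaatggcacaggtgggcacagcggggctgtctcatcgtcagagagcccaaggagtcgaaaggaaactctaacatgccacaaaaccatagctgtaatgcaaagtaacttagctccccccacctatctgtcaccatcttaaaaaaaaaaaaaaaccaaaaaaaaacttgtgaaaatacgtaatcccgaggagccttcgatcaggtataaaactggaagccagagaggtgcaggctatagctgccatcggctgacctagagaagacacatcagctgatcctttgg
Il12rb2 promoter, chr6:67376139-67376438, minus strand: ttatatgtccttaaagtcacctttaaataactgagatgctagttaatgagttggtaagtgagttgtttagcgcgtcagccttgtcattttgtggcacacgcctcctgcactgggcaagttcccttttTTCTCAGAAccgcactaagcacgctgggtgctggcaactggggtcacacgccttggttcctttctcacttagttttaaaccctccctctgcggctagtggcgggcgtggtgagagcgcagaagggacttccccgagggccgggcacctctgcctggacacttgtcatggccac
Il12b promoter, chr11:44399813-44400112, plus strand: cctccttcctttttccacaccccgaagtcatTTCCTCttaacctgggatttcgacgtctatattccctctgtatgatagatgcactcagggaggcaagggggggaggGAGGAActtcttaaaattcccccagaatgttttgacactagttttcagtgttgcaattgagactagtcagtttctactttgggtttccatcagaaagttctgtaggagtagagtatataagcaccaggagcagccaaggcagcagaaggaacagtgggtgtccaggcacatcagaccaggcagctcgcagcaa
The GAS letters stood 249 bases before the start site of Ifng and 123 bases before that of Il12rb2, and 8.30% of 32851 mouse promoters of this length hold them. GAGGAA occurred 2 times before Il12b, first at 219 bases, and occurs in 28.3% of all promoters. Neither motif was particular to the printed genes. The GAS letters also occurred 2 times in 1 window of Il18r1, a gene not lower in T-like cells of the LTβR agonist library. GAGGAA also occurred 2 times in the window of Il18rap and 1 time in that window of Il18r1. The windows of Tbx21 and Il18 held none of the 4 motifs searched, which also included the T-box letters GGTGTGA (3.98% of promoters) and the core of the interferon-stimulated response element (3.44%). A match describes letters and is no measurement of binding.

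Each gene had its own place among the cells. Il12b was read almost only in dendritic-like cells, Il18 mainly in macrophage- or monocyte-like cells, Ifng in T-like cells, and the receptors, Stat4 and Tbx21 in T-like and NK-like cells, with Stat4 also in dendritic-like cells and Il18rap in neutrophil-like cells. Against the untreated library, Ifng in T-like cells stood at 0.555 (0.525 to 0.586) of the untreated level in the LTβR agonist library, 0.701 (0.666 to 0.738) in the combination library and 1.15 (1.10 to 1.21) in the STING agonist library. The last ratio was 0.956 without the 10 highest cells of each library, so that no order of the untreated and STING agonist libraries is read. Tbx21 and Il18rap were also lower in T-like cells of the LTβR agonist and combination libraries, while Stat4 differed little. Levels are UMIs of the gene per 1000000 UMIs of the class in that library (CPM), and every ratio is a ratio of 2 such levels. Where 3 ratios are listed they are those of the STING agonist, the LTβR agonist and the combination over untreated.

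**Figure D1:**
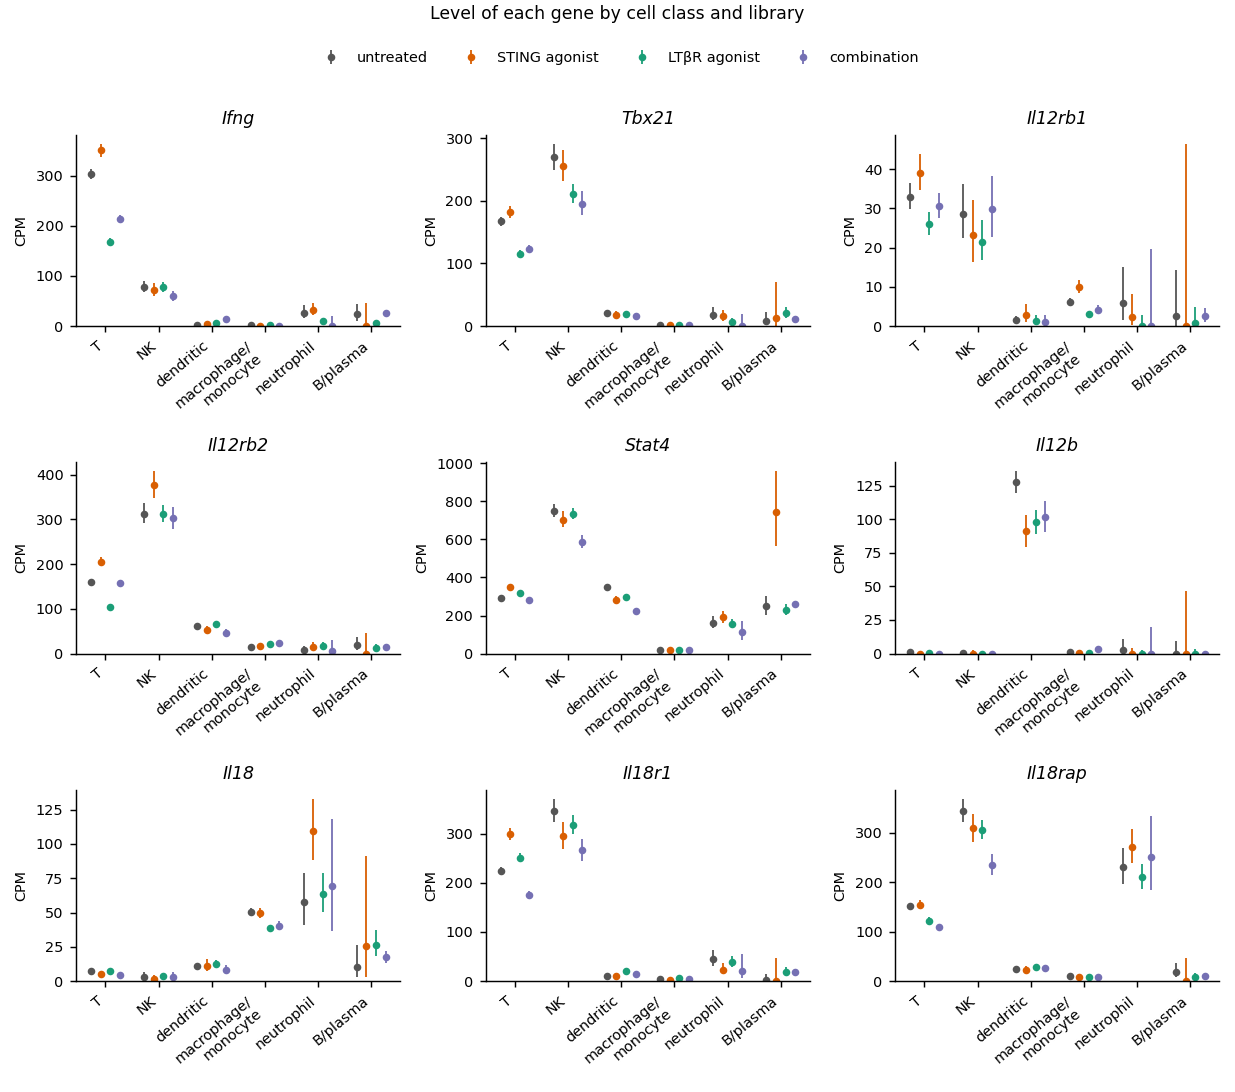
Level of each gene (y axis, CPM from 0) in 6 cell classes (x axis) of the 4 libraries (colors), 1 point per library with its 95% Poisson interval. Ifng is highest in T-like cells in all 4 libraries, from 168 to 350.0 CPM, Il12b in dendritic-like cells, from 91.0 to 128 CPM, and the wide intervals of B- and plasma-like cells of the STING agonist library rest on 15 cells.

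Il12b encodes the chain that IL-12 shares with IL-23. Its level in dendritic-like cells was 128 (95% interval 119.8 to 136), 91.0 (79.7 to 104), 97.8 (89.4 to 107) and 102 (90.6 to 114) CPM, from 983, 233, 493 and 304 UMIs. By CPM the untreated library was highest and the 3 agonist libraries lay close together, at 0.713 (0.616 to 0.824), 0.767 (0.687 to 0.855) and 0.797 (0.699 to 0.907) of it. Dendritic-like cells held 94.7%, 97.9%, 98.6% and 84.4% of all Il12b UMIs. T-like cells held 10, 0, 2 and 0 UMIs and NK-like cells 1, 0, 0 and 0, so that the level in dendritic-like cells is not one that all classes share. With no quality filter and classes by marker score, the combination ratio was 1.15. The signal came from few cells. A UMI of Il12b was found in 60, 23, 40 and 25 dendritic-like cells, and the 10 cells with the most held 78.0%, 82.0%, 77.9% and 76.0% of the dendritic UMIs. The single highest cell held 270, 66, 119 and 33 UMIs. Without the 10 highest cells of each library the ratios became 0.60, 0.776 and 0.899.

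Mature-like dendritic cells, marked by Ccr7, Fscn1 and Ccl22 and known to carry antigen to T cells, held 90.9%, 63.1%, 72.2% and 95.1% of the dendritic Il12b UMIs. Their level was 568, 255, 327 and 468 CPM. They made up 25.0%, 28.1%, 26.9% and 24.2% of dendritic-like cells, and the class level was not ordered like this share. The mature-like cells were themselves of several kinds that differed in Il12b. Sub-cluster 10, led by Fscn1, Bcl2l14 and Strip2, stood at 2232, 669, 693 and 743 CPM and was highest in the untreated library, with 840, 110, 130 and 101 UMIs. Sub-cluster 0, led by Fscn1, Fabp5 and Cd63, stood at 67.3, 111, 117 and 374 CPM and was highest in the combination library, at 5.56 (3.96 to 7.89) times untreated. Sub-cluster 9, led by Fabp5, Ccl22 and Ccr7, held 0, 15, 121 and 82 UMIs. Of the 121 in the LTβR agonist library 1 cell held 119, and of the 82 in the combination library 1 cell held 33. The combination thus had less Il12b than untreated in sub-cluster 10 and more in both others. Outside the mature-like cells, a sub-cluster that carried macrophage genes (C1qb, C1qa, C1qc) stood at 38.1, 279, 109.7 and 1.90 CPM, highest in the STING agonist library. There 1 cell held 66 of its 69 UMIs, and in the LTβR agonist library 1 cell held all of its 85. In sub-cluster 10 the 2 highest cells held 398, 43, 49 and 47 UMIs, and without them the ratios were 0.374, 0.370 and 0.386. These sub-clusters hold between 11 and 89 cells per library, and the difference between their ratios was not tested.

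Macrophage- or monocyte-like cells held 42, 5, 5 and 56 Il12b UMIs, a ratio of 2.50 (1.65 to 3.83) for the combination over untreated. In the untreated library 1 cell held 61.9% of these UMIs, and in the combination library 1 cell held 55.4%, so the ratio rests on few cells. Of the 56 UMIs in the combination library, 52 lay in the sub-cluster led by Spp1, Dcstamp and Il1r2, and of the 42 in the untreated library 26 lay in one led by the heat-shock genes Hspa1b and Hspa1a. The ratio was 0.575 when cells were classed one by one from their markers.

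**Figure D2:**
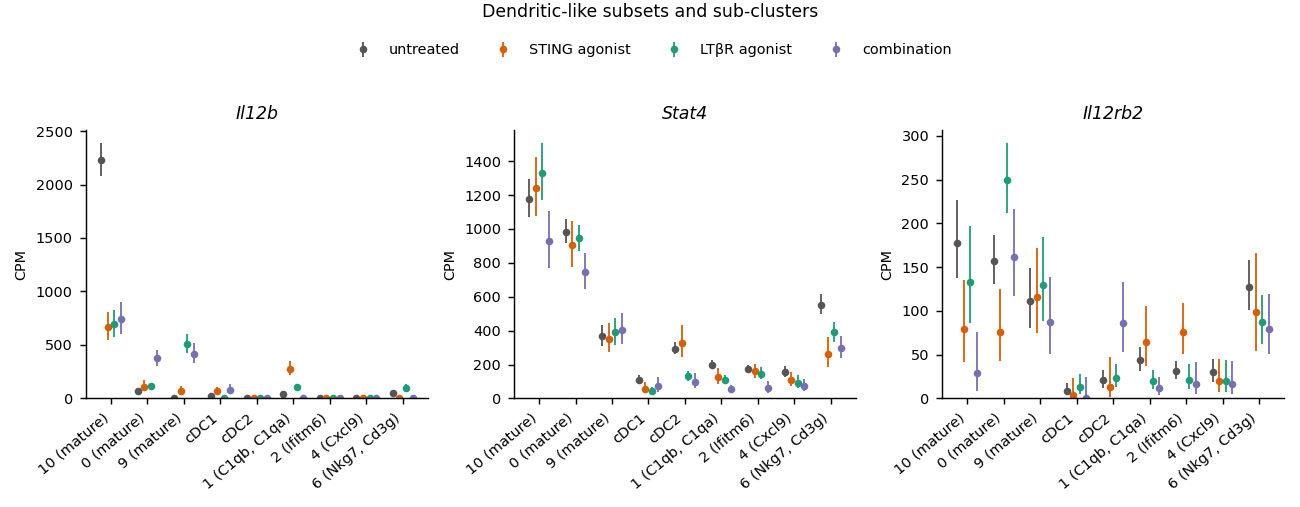
Il12b, Stat4 and Il12rb2 (y axes, CPM from 0) in dendritic-like subsets and sub-clusters (x axes, number with leading genes) of the 4 libraries (colors), with 95% Poisson intervals. In sub-cluster 10 the untreated library stands at 2232 CPM of Il12b and the 3 agonist libraries at 669 to 743 CPM, and Stat4 is highest in the mature-like sub-clusters 10 and 0 in every library.

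Il18 encodes the IL-18 precursor. In macrophage- or monocyte-like cells it stood at 50.4 (95% interval 47.8 to 53.1), 49.5 (46.1 to 53.1), 38.4 (36.0 to 40.9) and 40.4 (37.2 to 43.7) CPM. The STING agonist library was close to untreated (ratio 0.983, interval 0.899 to 1.07), and the LTβR agonist and combination libraries were lower, at 0.763 (0.702 to 0.829) and 0.801 (0.727 to 0.882) of untreated. The class held 86.4%, 82.0%, 77.6% and 79.3% of all Il18 UMIs. Unlike Il12b, the transcript was spread thinly over many cells, and no cell of the class held more than 10 UMIs. Among the named subsets it was highest in cells with the interferon-induced chemokines Cxcl9 and Cxcl10, at 91.8, 87.5, 82.0 and 78.9 CPM. Of the 2 sub-clusters that make up this subset, the one led by Timp1, Cxcl10 and Slpi stood at 119, 108, 105 and 126 CPM, the highest of all 16 sub-clusters in every library. Il18 was lower in C1q-like macrophages, at 31.7, 35.1, 30.1 and 29.9 CPM, and in inflammatory-like cells with Cxcl3 and Il1a, at 31.6, 37.8, 29.5 and 29.6 CPM. Within each of these 3 subsets the combination stood at 0.860 (0.738 to 0.999), 0.943 (0.637 to 1.36) and 0.938 (0.560 to 1.51) of untreated. The Cxcl9 Cxcl10-like subset made up 23.6%, 23.8%, 16.4% and 17.5% of the class, which moved with the class level. Its part in the lower class level was not tested. An unnamed sub-cluster led by Rsad2, Ifit2 and Ifit3, which are type I interferon response genes, stood at 83.9, 90.7, 85.8 and 52.6 CPM and was lower in the combination library, at 0.627 (0.436 to 0.882) of untreated.

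Dendritic-like cells had Il18 levels of 10.9, 11.3, 12.1 and 7.70 CPM and NK-like cells 3.23, 1.26, 3.48 and 2.98 CPM. T-like cells had 7.16, 4.83, 7.54 and 4.15 CPM, a ratio of 0.580 (0.401 to 0.831) for the combination. Most of the T-like UMIs (74, 25, 80 and 41 of 86, 37, 89 and 50) lay in sub-cluster 3, the one with myeloid genes, and without it the ratio was 0.685. Without cells that carried markers of 2 classes it was 0.908. Neutrophil-like cells had 57.6 (95% interval 41.0 to 78.8), 109 (88.6 to 133), 63.5 (50.3 to 79.0) and 69.2 (36.8 to 118) CPM. The STING agonist library was the highest of the 4 there, at 1.89 (1.29 to 2.82) times untreated.

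**Figure D3:**
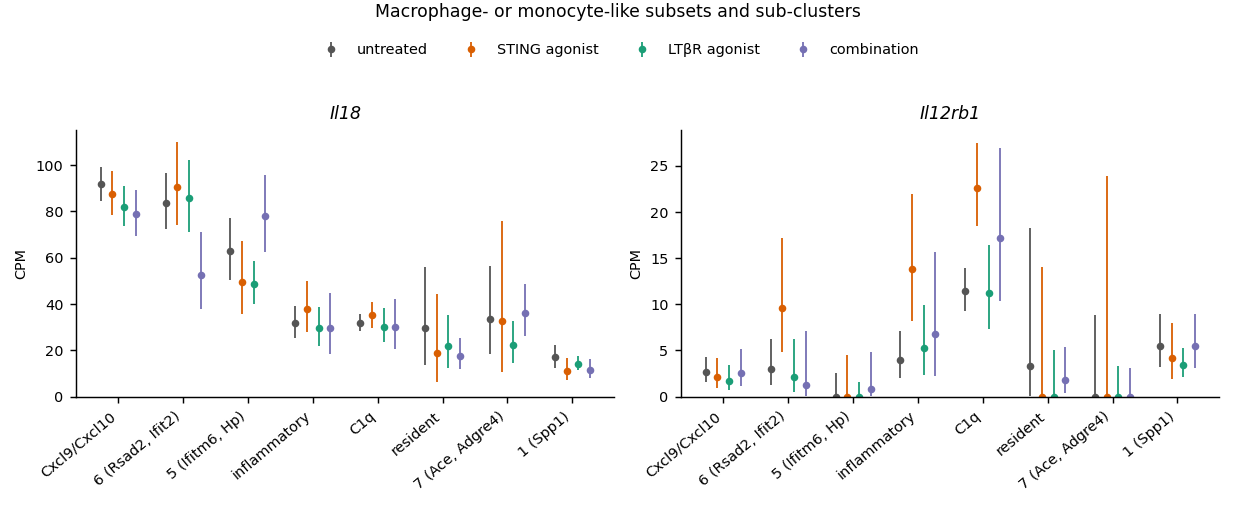
Il18 and Il12rb1 (y axes, CPM from 0) in macrophage- or monocyte-like subsets and sub-clusters (x axes) of the 4 libraries (colors), with 95% Poisson intervals. Il18 is at 78.9 to 91.8 CPM in Cxcl9 Cxcl10-like cells and at 29.9 to 35.1 CPM in C1q-like cells, and Il12rb1 is higher in C1q-like cells than in the other named subsets in every library.

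Il12rb1, the receptor chain that IL-12 shares with IL-23, stood at 33.0 (95% interval 29.9 to 36.5), 39.1 (34.8 to 43.8), 26.0 (23.2 to 29.1) and 30.7 (27.7 to 34.0) CPM in T-like cells and 28.6, 23.2, 21.5 and 29.8 CPM in NK-like cells. The T-like levels of the STING agonist and LTβR agonist libraries were 1.18 (1.02 to 1.38) and 0.787 (0.676 to 0.916) of untreated and that of the combination library 0.930 (0.805 to 1.07). Among T-like subsets the highest levels were in IL-17-like cells, which carry Il17a and Il23r, at 90.4, 113, 63.1 and 82.2 CPM, in regulatory-like cells, at 74.3, 65.8, 57.1 and 71.7 CPM, and in interferon response-like cells, at 61.2, 62.1, 66.8 and 69.4 CPM. Dendritic-like cells held 11, 7, 7 and 3 UMIs. Memory CD8-like cells held 13.9, 35.8, 24.8 and 18.1 CPM. Macrophage- or monocyte-like cells had low levels of 6.23 (95% interval 5.34 to 7.22), 10.0 (8.49 to 11.7), 3.17 (2.51 to 3.95) and 4.12 (3.16 to 5.28) CPM, with ratios of 1.61 (1.29 to 2.00), 0.510 (0.386 to 0.668) and 0.661 (0.487 to 0.888). The highest level among the named subsets was in C1q-like cells, at 11.4, 22.6, 11.2 and 17.2 CPM, which were 26.9%, 23.5%, 6.61% and 4.56% of the class. Within C1q-like cells the ratios were 1.98 (1.49 to 2.63), 0.978 (0.610 to 1.52) and 1.51 (0.871 to 2.47). The higher level with the STING agonist was also seen inside the subset, and the lower class levels with the LTβR agonist and the combination were not. These ratios rest on 102, 26 and 19 UMIs against 101 in the untreated library. The subset pools sub-cluster 0 (771, 334, 80 and 34 cells) and sub-cluster 14 (64, 17, 117 and 51 cells), so its own mixture differed between libraries. The part of either mixture in the class levels was not tested.

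Il12rb2, the chain particular to the IL-12 receptor and the one that lymphocytes switch on as they become type 1 cells, stood at 159.7 (95% interval 153 to 167), 205 (195 to 215), 104 (98.1 to 109.8) and 157 (149.9 to 164) CPM in T-like cells. The STING agonist library was highest (ratio 1.28, interval 1.20 to 1.37), the LTβR agonist library lowest (ratio 0.650, interval 0.605 to 0.699), and the combination library close to untreated (ratio 0.983, interval 0.922 to 1.05). The subsets did not all follow the class. Sub-cluster 0, led by Ccl3, Ccl4 and Prf1, stood at 183, 234, 121 and 197 CPM, and memory CD8-like cells at 211, 288, 198 and 196 CPM. Granzyme CD8-like cells, with Gzmd, Gzme and Gzmf, stood at 143, 146, 151 and 207 CPM and were highest in the combination library, at 1.45 (1.23 to 1.70). Sub-cluster 7, with Cd4, Csf2 and Cd40lg, stood at 190.3, 340.1, 189 and 258 CPM and was highest in the STING agonist library.

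NK-like cells had more Il12rb2 than T-like cells in every library, at 313 (95% interval 291 to 336), 376 (347 to 408), 312 (294 to 331) and 303 (279 to 328) CPM. The STING agonist library was highest again (ratio 1.20, interval 1.08 to 1.34), and the LTβR agonist and combination libraries stood at 0.997 (0.908 to 1.09) and 0.967 (0.869 to 1.08). The NK-like sub-cluster led by Ccl4 and Ccl3 stood at 311, 616, 473 and 601 CPM and was lowest in the untreated library. Dendritic-like cells had 61.9, 52.0, 65.1 and 46.8 CPM, and the mature-like cells among them stood higher in every library (150.5, 90.3, 196 and 105 CPM). Macrophage- or monocyte-like cells had 15.3, 17.0, 22.0 and 23.6 CPM, a ratio of 1.55 (1.34 to 1.78) for the combination. Both chains of the IL-12 receptor were read in 6.63%, 9.08%, 3.62% and 6.91% of T-like cells and 9.27%, 7.19%, 5.59% and 8.33% of NK-like cells. The share was 0.645%, 1.61%, 0.436% and 0.537% of macrophage- or monocyte-like cells, which were read more deeply (median 7470 to 10357 UMIs per cell, against 4482 to 5366 in T-like and 4152 to 5118 in NK-like cells). Cells that express both chains can be missed at this depth.

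Il18r1, the chain that binds IL-18, stood at 224 (95% interval 216 to 233), 299.6 (288 to 312), 251 (242 to 260.0) and 175 (167 to 182) CPM in T-like cells. The STING agonist library was highest and the combination library lowest, at 1.34 (1.26 to 1.41) and 0.780 (0.737 to 0.827) of untreated. Set against either single agonist, the combination level was 0.584 (0.550 to 0.619) of the STING agonist level and 0.697 (0.659 to 0.738) of the LTβR agonist level. Apart from a sub-cluster of few UMIs per cell led by Lncpint and Arl15, at 1057, 1352, 1357 and 740.4 CPM, the gene was highest in cells with Il17a. There were 942, 679, 817 and 609 CPM in IL-17-like cells and 801, 838, 794 and 747 CPM in the sub-cluster led by Tmem176b and Il17a. Naive-like cells, with Tcf7 and S1pr1, had 539, 413, 597 and 378 CPM, and sub-cluster 0 with Ccl3, Ccl4 and Prf1 had 119, 180.2, 171 and 106 CPM. Th2 or ILC2-like cells, with Il13 and Gata3, stood at 521, 493, 168 and 105 CPM, and their lowest level was that of the combination (ratio 0.201, interval 0.137 to 0.296, from 51, 17, 48 and 64 UMIs). NK-like cells had 347 (95% interval 324 to 371), 295 (269 to 323), 318 (299 to 337) and 266 (244 to 289.5) CPM, with the untreated library highest and the combination lowest (ratio 0.766, interval 0.686 to 0.854). Dendritic-like cells had 10.0, 10.2, 20.2 and 13.7 CPM, and their LTβR agonist ratio was 2.02 (1.49 to 2.76), or 2.32 without sub-cluster 6. Macrophage- or monocyte-like cells had 3.68, 1.92, 5.30 and 3.72 CPM, from 104, 30, 132 and 56 UMIs. Of these, 59, 21, 85 and 48 UMIs lay in sub-cluster 15, which also carried the lymphocyte genes Nkg7 and Skap1, at 80.7, 105, 79.3 and 90.3 CPM. The STING agonist ratio of the class, 0.523 (0.336 to 0.791), was 0.872 with 10 CPM added to both levels, 0.199 without the 10 highest cells and 1.04 with cells thinned to 1000 UMIs, so that no direction is read.

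Il18rap, the signaling partner of Il18r1, stood at 151 (95% interval 144 to 158), 154 (146 to 163), 122 (116 to 128) and 109 (103 to 115) CPM in T-like cells. The STING agonist library stood at 1.02 (0.947 to 1.10) of untreated, and the LTβR agonist and combination libraries were at 0.807 (0.752 to 0.865) and 0.720 (0.670 to 0.774) of untreated. NK-like cells had 344 (95% interval 322 to 368), 309 (282 to 337), 306 (288 to 325) and 235 (215 to 257) CPM, above the T-like level in every library, and the combination was again lowest (ratio 0.683, interval 0.609 to 0.765). Dendritic-like cells had 24.9, 23.1, 28.4 and 25.8 CPM of Il18rap and macrophage- or monocyte-like cells 10.6, 8.91, 7.71 and 8.03 CPM. Both IL-18 receptor chains were read in 29.9%, 32.2%, 25.2% and 23.6% of T-like cells. The share was 51.6%, 48.9%, 47.2% and 40.4% of NK-like cells, and in both classes it was lowest with the combination. In macrophage- or monocyte-like cells it was 0.580%, 0.402%, 0.705% and 0.537%. In neutrophil-like cells one chain was read far more often than the other. Il18rap stood at 231, 272, 210.2 and 250.2 CPM there, with a UMI in 44.1%, 44.4%, 41.3% and 42.6% of cells, while a UMI of Il18r1 was found in 6.17%, 5.26%, 6.67% and 5.88%. Both were read in 3.52%, 5.26%, 5.07% and 2.94% of neutrophil-like cells. By comparison 8.58%, 8.17%, 5.74% and 5.58% of macrophage- or monocyte-like cells held a UMI of Il18rap, and their median depth of 7470 to 10357 UMIs was above the 1942 to 2392 UMIs of neutrophil-like cells, so that the neutrophil share is not a background common to all cells.

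Stat4, the transcription factor of the IL-12 receptor, stood at 751 (95% interval 717 to 785), 705 (664 to 748), 736 (707 to 765) and 589 (556 to 624) CPM in NK-like cells, the highest of the 4 classes in each library. The combination was lowest, at 0.785 (0.729 to 0.845) of untreated. With the libraries pooled, Stat4 was highest in NK-like sub-clusters 2 and 7, led by Lncpint and by Ikzf2, at 1807 and 1945 CPM. Sub-cluster 2 held 93, 43, 84 and 25 cells and sub-cluster 7 held 54, 20, 29 and 4. Both also stood above the NK-like class in pooled Il18r1 (639 and 563 against 311 CPM) and Il18rap (713 and 399 against 301 CPM). The part of this mixture in the class levels was not tested. T-like cells had 292 (95% interval 282 to 302), 347 (334 to 361), 316 (306 to 326) and 283 (274 to 293) CPM, and no agonist library differed from untreated by 1.5-fold. Th2 or ILC2-like cells were lower in the LTβR agonist and combination libraries, at 0.323 (0.225 to 0.464) and 0.303 (0.223 to 0.415), and granzyme CD8-like cells were higher in the LTβR agonist library, at 1.78 (1.52 to 2.07). The highest level among T-like cells, 1475, 1209, 1357 and 1323 CPM, belonged to the sub-cluster of few UMIs per cell led by Lncpint and Arl15. The NK-like sub-cluster led by Lncpint stood at 1932, 1597, 1841 and 1632 CPM. Dendritic-like cells had 352 (95% interval 339 to 366), 280.2 (260.0 to 301), 295 (281 to 311) and 224 (207 to 241) CPM and the combination stood at 0.634 (0.582 to 0.690) of untreated. Mature-like cells carried most of it, with 874, 797, 874 and 667 CPM and a combination ratio of 0.764 (0.683 to 0.853). In cDC2-like cells the levels were 294, 329.7, 132 and 99.0 CPM and the combination ratio 0.337 (0.210 to 0.516). These cells numbered only 80, 14, 49 and 17. Without sub-cluster 6 the class ratio for the combination was 0.645. B- and plasma-like cells had 249.6, 744, 229.7 and 259 CPM, and macrophage- or monocyte-like cells 20.4, 16.2, 20.7 and 18.8 CPM.

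Tbx21 encodes T-bet. T-like cells had 167 (95% interval 160.1 to 175), 182 (173 to 192), 114 (108 to 121) and 123 (117 to 129) CPM. The STING agonist and untreated libraries lay above both others, and the ratios were 1.09 (1.02 to 1.17), 0.684 (0.638 to 0.733) and 0.736 (0.687 to 0.787). Regulatory-like cells, marked by Foxp3, were lowest in the untreated library, with 80.2, 154, 132 and 96.3 CPM and ratios of 1.91 (1.31 to 2.81), 1.65 (1.21 to 2.28) and 1.20 (0.842 to 1.73). Cycling-like cells had 207, 196, 125 and 124 CPM. NK-like cells had 269.8 (95% interval 249.8 to 291), 255 (231 to 281), 211 (196 to 227) and 196 (177 to 216) CPM, again with the LTβR agonist and combination libraries lowest, at 0.781 (0.702 to 0.869) and 0.725 (0.638 to 0.822) of untreated. Among them ILC1-like cells, with Cxcr6 and Tmem176b, stood at 405, 278, 226 and 187 CPM. The sub-cluster named conventional NK-like, with Eomes and Klra8, stood at 231, 271, 193 and 170.2 CPM. Dendritic-like cells had 20.6, 18.4, 18.7 and 15.4 CPM of Tbx21 and macrophage- or monocyte-like cells 1.56, 1.15, 2.01 and 1.33 CPM.

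Ifng is the output of this pathway. T-like cells held 3645, 2683, 1988 and 2562 UMIs of Ifng, or 303 (95% interval 294 to 313), 350.0 (337 to 363), 168 (161 to 176) and 213 (205 to 221) CPM. The 4 intervals do not overlap, and the order was STING agonist, untreated, combination and LTβR agonist. Against the single agonists, the combination level was 0.608 (0.576 to 0.642) of the STING agonist level and 1.26 (1.19 to 1.34) of the LTβR agonist level. T-like cells held 92.5%, 93.6%, 82.5% and 88.2% of all Ifng UMIs. Over all filtered cells together Ifng stood at 73.1, 96.3, 47.9 and 75.8 CPM, and T-like cells made up 27.6%, 33.5%, 27.5% and 33.6% of them. The lower T-like level of the combination library was thus not seen over all cells. The share of T-like cells with a UMI was 36.9%, 34.0%, 27.2% and 31.2% and, when each cell was thinned to 1000 UMIs, 15.3%, 13.9%, 10.4% and 12.6%. In the more deeply read macrophage- or monocyte-like cells the unthinned share was 0.838%, 0.201%, 0.839% and 0.483%. By share of cells the untreated library was the highest and by CPM the STING agonist library, so that no order of these 2 is read.

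A few T cells carried much of the Ifng. Cells with at least 10 UMIs numbered 97, 60, 45 and 59 and held 51.5%, 61.1%, 37.7% and 47.1% of the T-like UMIs, while a median positive cell held 2 or 3. One cell of the STING agonist library alone held 348 UMIs. Without the 10 highest cells of each library the STING agonist ratio was 0.956, and the LTβR agonist and combination ratios were 0.550 and 0.700. Macrophage markers summed to 3501, 2579, 3926 and 2574 CPM in T-like cells, mainly in sub-cluster 3, whose own Ifng level was 109.7, 72.9, 41.6 and 32.1 CPM. Without that sub-cluster the ratios were 1.05, 0.584 and 0.683.

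With the libraries pooled, Ifng was highest in chemokine-rich T cells (sub-cluster 0, 593 CPM) and low in regulatory and IL-17 cells. In the combination library interferon response-like cells stood above sub-cluster 0. Sub-cluster 0, led by Ccl3, Ccl4, Prf1 and Lag3, stood at 632, 697, 593 and 507 CPM. Memory CD8-like cells, with Xcl1, Ly6c2 and Cxcr3, stood at 404, 586, 279 and 196 CPM, and their ratios were 1.45 (1.27 to 1.66), 0.690 (0.587 to 0.810) and 0.484 (0.409 to 0.572). Cycling-like cells, with Mki67 and Top2a, had 348, 369, 141 and 125 CPM. Granzyme CD8-like cells had 379.7, 455, 310.5 and 279.8 CPM, and the CD4-bearing sub-cluster 7 had 571, 487, 335 and 385 CPM. Interferon response-like cells, with Ifit1 and Isg15, were higher in the combination than in the untreated library, at 293, 407, 274 and 561 CPM and a ratio of 1.92 (1.44 to 2.58), from 35 to 43 cells per library. Regulatory-like cells had 35.7, 14.6, 23.6 and 61.1 CPM, and IL-17-like cells 1, 2, 0 and 2 UMIs.

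**Figure D4:**
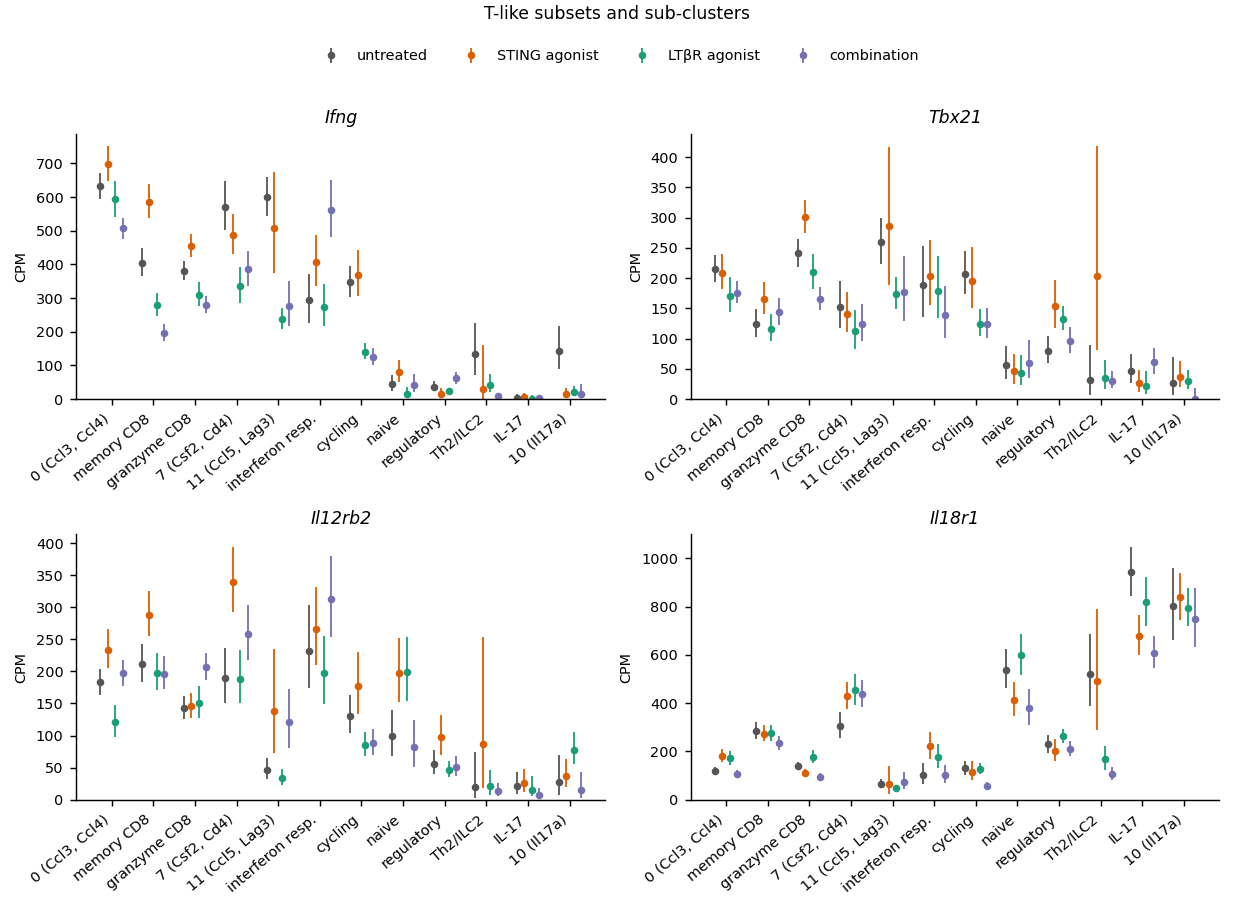
Ifng, Tbx21, Il12rb2 and Il18r1 (y axes, CPM from 0) in T-like subsets and sub-clusters (x axes, unnamed ones by number with leading genes) of the 4 libraries (colors), with 95% Poisson intervals. In the sub-cluster with Ccl3 and Ccl4, Ifng is at 507 to 697 CPM and Il18r1 at 106 to 180 CPM, and in IL-17-like cells Ifng is at 0 to 5.10 CPM and Il18r1 at 609 to 942 CPM.

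NK-like cells had less Ifng than T-like cells, 78.6 (95% interval 68.0 to 90.5), 71.6 (59.1 to 86.1), 77.8 (68.7 to 87.7) and 59.1 (48.9 to 70.7) CPM from 195, 114, 268 and 119 UMIs. The ratios were 0.911 (0.716 to 1.15), 0.989 (0.819 to 1.20) and 0.751 (0.593 to 0.948). The first 2 intervals include 1 and reach from 0.716 to 1.20, so that a difference of that size was not detectable at this depth. The sub-cluster led by Ccl4 and Ccl3 stood at 244, 149, 192 and 252 CPM. The sub-cluster named conventional NK-like held 37, 7, 40 and 2 UMIs, or 82.2, 34.5, 55.1 and 4.93 CPM. The sub-cluster led by Ccl4 and Ccl3 also matched the conventional NK markers best but stayed unnamed. The name therefore does not cover all such cells, and no level of conventional NK cells as a whole is read.

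Dendritic-like cells held 17, 9, 26 and 44 Ifng UMIs, and the combination ratio was 6.67 (3.74 to 12.5). All 44 UMIs of the combination library lay in sub-cluster 6, the one with Cd3g and Gzmb. Without cells that carried markers of 2 classes the ratio was 1.53. T markers summed to 186, 137, 211 and 225 CPM in dendritic-like cells and to 22.9, 22.1, 19.1 and 31.0 CPM without sub-cluster 6. B- and plasma-like cells held 9, 0, 7 and 95 Ifng UMIs, and the 95 of the combination library gave 25.8 CPM. Those 95 lay in 11 of 539 cells, and 1 cell held 50.5% of them.

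T-like cells with an Ifng UMI were compared with those without, within each library. Tbx21 was higher in cells with Ifng in 4 of 4 libraries, with CPM ratios of 1.62, 2.12, 1.76 and 1.71. Il12rb2 was higher as well, at 1.13, 1.26, 1.32 and 1.71. Il18r1 was lower in 4 of 4 libraries, at 0.430, 0.528, 0.602 and 0.561, and so was Stat4, at 0.591, 0.808, 0.907 and 0.887. Il12rb1 and Il18rap ran in no common direction. Cells with Ifng were read more deeply, with a median of 6777 to 7703 UMIs against 3631 to 4526, and the part of depth and of subset in these ratios was not tested. In NK-like cells the Tbx21 ratios were 1.42, 1.08, 1.04 and 1.45, with an interval above 1 in 2 of 4 libraries, and Il12rb2 ran in no common direction, at 1.20, 1.06, 0.915 and 1.24.

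**Figure D5:**
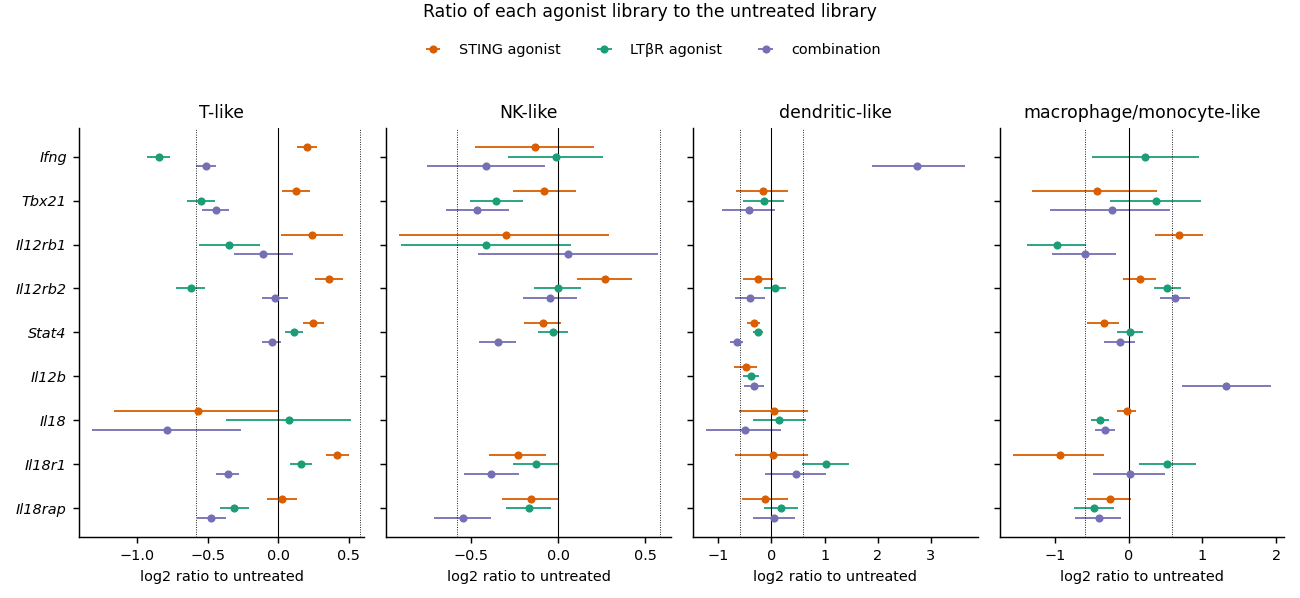
Ratio of each agonist library to the untreated library (x axis, log2) for each gene (y axis) in the 4 classes, with 95% conditional binomial intervals; dotted lines mark 1.5-fold, and genes under 50 UMIs in the 2 libraries are left out. In T-like cells Ifng with the LTβR agonist lies past the lower line at 0.555, and in NK-like cells no point lies past either line.

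Counted by class, few of the genes passed 1.5-fold. Genes under 50 UMIs in the 2 libraries were left out of the counts: Il12b in T-like cells, Il12b and Il18 in NK-like cells, Il12rb1 and, except with the combination, Ifng in dendritic-like cells, and in macrophage- or monocyte-like cells Ifng except with the LTβR agonist and Il12b except with the combination. The last of these, like Ifng in dendritic-like cells, entered only where it was high. In T-like cells the STING agonist gave 0 of 8, the LTβR agonist 2 of 8 (Ifng and Il12rb2, both lower) and the combination 1 of 8 (Il18, lower), while 10.7%, 8.43% and 8.85% of all genes with at least 50 UMIs in the 2 libraries passed. In NK-like cells the count was 0 of 7 in each comparison, against 10.1%, 6.38% and 10.9% of all genes. In dendritic-like cells 0 of 7, 1 of 7 (Il18r1, higher) and 2 of 8 (Ifng higher, Stat4 lower) passed, against 8.8%, 7.15% and 11.3%. In macrophage- or monocyte-like cells 2 of 7 (Il12rb1 higher, and Il18r1 lower, whose direction turned with thinning), 1 of 8 (Il12rb1 lower) and 3 of 8 (Il12rb1 lower, Il12rb2 and Il12b higher) passed, against 5.09%, 9.33% and 11.7%. With so few genes, these counts are not read as differing from the background. The median log2 ratio of the genes in T-like cells was 0.23, -0.33 and -0.40, beside medians of all genes of 0.03, -5.6e-05 and -0.05. In NK-like cells it was -0.13, -0.13 and -0.38, beside 0.05, -0.05 and -0.04. In dendritic-like cells it was -0.17, 0.07 and -0.36, beside 0.0065, 0.017 and -0.018. In macrophage- or monocyte-like cells it was -0.26, 0.12 and -0.17, beside 0.011, 0.018 and 0.053. The combination medians of these last 2 classes include Ifng and Il12b, respectively, which entered only where they were high.

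Other genes of the pathway were read from 7 lists. Of 20 known targets of IFNγ, 19 had enough UMIs in macrophage- or monocyte-like cells. With the STING agonist 2 of them were higher by 1.5-fold and none lower, beside 5.09% of all genes past 1.5-fold in either direction: Cxcl9, a chemokine for T cells (ratio 1.63, 552 against 339 CPM), and Socs1, an inhibitor of cytokine signaling (ratio 1.80). Both were also higher with the combination, at 1.58 and 1.79, where Il18bp was the lowest (0.740). With the LTβR agonist 3 were lower and none higher: the GTPases Gbp2 (0.523) and Gbp4 (0.532) and Il18bp, the soluble inhibitor of IL-18 (0.469, 37.0 against 78.9 CPM). In the LTβR agonist and combination libraries 9.33% and 11.7% of all genes passed. In dendritic-like cells 5 of 19 were higher and 1 lower with the STING agonist, 5 lower with the LTβR agonist and 2 lower with the combination, beside 8.8%, 7.15% and 11.3% of all genes. Without sub-cluster 6 the counts were 5 higher and 1 lower, 5 lower and 1 lower. Cxcl10 there stood at 1.90 with the STING agonist and 0.537 with the combination, the lowest of the list, and Cxcl9 with the combination at 1.42, the highest. In NK-like cells, Cxcl10 was the highest with the combination (3.55) and Gbp2 the lowest (0.747), and in T-like cells Socs1 (1.34) and Il18bp (0.524). Of 19 targets with enough UMIs in T-like cells, 1 was higher and 5 lower with the STING agonist, 1 and 2 with the LTβR agonist, and 0 and 3 with the combination, beside 10.7%, 8.43% and 8.85% of all genes. The lowest was Ciita, the activator of MHC class II genes, with the STING agonist (0.274). These counts rested in part on sub-cluster 3. Without it they were 3 and 2 of 15, 1 and 1 of 18, and 1 and 0 of 18, and Ciita held 12 against 24 UMIs.

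Of 8 lymphocyte genes known to be induced by IL-12 with IL-18, Ifng itself among them, Csf2, the cytokine GM-CSF, was the highest in T-like cells in every comparison, at 2.32, 1.70 and 1.98. The chemokine genes Ccl3 and Ccl4 were lower with the LTβR agonist (0.560 and 0.544) and the combination (0.545 and 0.588), and Xcl1 was the lowest with the combination (0.420) and higher with the STING agonist (1.56). In all, 3 of the 8 were higher and 0 lower with the STING agonist, 1 and 4 with the LTβR agonist, and 1 and 3 with the combination, beside 10.7%, 8.43% and 8.85% of all genes. Without sub-cluster 3 the counts were 2 higher and 2 lower, 1 and 5, and 1 and 3, with Csf2 at 3.17, 2.70 and 2.44 and Xcl1 at 1.36 with the STING agonist. In NK-like cells 0 of 6 passed with the combination, from Il2ra at 1.49 to Ifng at 0.751. In dendritic-like cells Il2ra was the lowest (0.228) and Ifng the highest. Without sub-cluster 6 Il2ra stood at 0.233 and Ifng held 2, 2, 0 and 0 UMIs. In macrophage- or monocyte-like cells Xcl1 was the lowest (0.20) and Gzmb the highest (1.48). Among genes of competing lineages in T-like cells, Il23r, the IL-23 receptor of IL-17 cells, was higher with the STING agonist (1.82). Foxp3 of regulatory cells (1.82) and Il1rl1, the IL-33 receptor (2.25), were higher with the LTβR agonist, and Il1rl1 (2.98) and Il23r (1.66) with the combination, where Foxp3 was the lowest (1.28). Outside T-like cells 1 gene of this list had enough UMIs for the combination, Gata3 in NK-like cells (0.735) and Foxp3 in dendritic-like cells (0.88). Without sub-cluster 6 the latter held 0, 1, 6 and 2 UMIs of Foxp3, and without sub-cluster 3 the combination ratio of Il23r in T-like cells lay just under 1.5-fold, from 333 against 203 UMIs.

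Receptor signaling genes such as Jak2, Tyk2 and Myd88 differed little: 0 of 10 or 11 passed 1.5-fold in any class and comparison except 1 of 11, Ifngr2 in T-like cells with the STING agonist (0.647, and 0.881 without sub-cluster 3). With the combination they lay between Myd88 (0.819) and Traf6 (1.13) in T-like cells, Stat3 (0.789) and Irak1 (1.33) in NK-like cells, Stat3 (0.767) and Traf6 (1.06) in dendritic-like cells, and Jak2 (0.821) and Traf6 (1.19) in macrophage- or monocyte-like cells. Of 6 IL-18 processing and control genes, Il18bp was lower in T-like cells in all 3 comparisons (0.625, 0.567 and 0.524), and macrophage markers in T-like cells were at 3501, 2579, 3926 and 2574 CPM. Without sub-cluster 3 it held 27, 20, 24 and 28 UMIs, and the ratios were 0.990, 0.931 and 0.947. Sigirr, an inhibitory receptor of the family, was higher in macrophage- or monocyte-like cells with the combination (2.31, 2.85 against 1.24 CPM). Casp1, the caspase that cleaves IL-18, was higher in NK-like and dendritic-like cells with the STING agonist (1.58 and 1.53, the latter 1.49 without sub-cluster 6). With the combination the highest and lowest of this list were Sigirr (1.00) and Il18bp in T-like cells, Gsdmd (1.25) and Pycard (1.02) in NK-like cells, and Gsdmd (1.05) and Il18bp (0.759) in dendritic-like cells. Among 6 cytokine partners in macrophage- or monocyte-like cells, Il12a, the other chain of IL-12, was the highest with the combination (1.73, 2.32 against 1.34 CPM) and Il27 the lowest (0.673). With the LTβR agonist Il23a, which pairs with the Il12b product in IL-23, was the highest (3.60, 2.29 against 0.637 CPM). In the other classes the list lay between Il15ra (0.790, or 0.659 without sub-cluster 3) and Ebi3 (0.980) in T-like cells and between Ebi3 (0.734) and Il15 (0.856) in dendritic-like cells with the combination, and NK-like cells had enough UMIs of Il15ra alone (0.971). Of 8 transcription factors of type 1 lymphocytes, Irf4 was higher in dendritic-like (1.63, or 1.45 without sub-cluster 6) and macrophage- or monocyte-like cells (3.14) with the combination, while Hlx in T-like cells (0.636, from 11 against 25 UMIs without sub-cluster 3) and Runx3 in NK-like cells (0.665) were the lowest. The lowest in dendritic-like and macrophage- or monocyte-like cells was Runx3 (0.836 and 0.759), and the highest in T-like and NK-like cells were Bhlhe40 (1.15) and Zeb2 (1.03).

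Likeness of pattern was measured as Pearson correlation of log2(CPM + 10) over the 25 clusters of at least 50 cells, libraries pooled, among 10858 genes. The clusters share libraries and differ in depth. Closest to Ifng were Rgs16 (r = 0.95), Rpa2 (r = 0.94), Gzmk (r = 0.93), Nkg7 (r = 0.93) and Lgalsl (r = 0.92). Closest to Il12b were Strip2 (r = 0.99), Ccl22 (r = 0.97), Tmem150c (r = 0.97), Fscn1 (r = 0.97) and Adcy6 (r = 0.97), and closest to Il18 Tnfaip6 (r = 0.95), Tlr2 (r = 0.94), Thbs1 (r = 0.94), Trem1 (r = 0.94) and Tarm1 (r = 0.93).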

How the data were processed

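Live CD45+ cells of pooled tumors were sequenced with 10x Genomics 5-prime chemistry, 1 library per group. According to the submitters' processing notes the authors ran Cell Ranger 7.1.0 against mm10. They deposited raw UMI counts as 1 matrix of 32285 genes and 24839 barcodes, in which the barcode's ending names the library. Doublet removal is not stated and doublets were kept. Of the single-cell experiments that the study describes, which one gave these libraries is not given in the sources used here.

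Barcodes were kept when they held 300 to 5000 genes and a mitochondrial share of no more than 6% (scanpy 1.11.5). After scaling to 10000 UMIs and taking logs, 30 principal components of 2000 variable genes (V(D)J segments and the 9 genes left out) and 20 neighbors gave Leiden clusters at resolution 1. Clusters were named from marker lists and carry the ending "-like"; clusters 6 and 24 stayed unnamed. The 4 classes were clustered again for subsets. These names are not the study's, and a difference from it may come from them. The genes and lists were chosen with earlier results of these data known. All 9 genes are named in every class, and from each list the highest and lowest with the combination plus those past 1.5-fold that the text describes, the latter chosen after their values were seen. 1 gene of the list of competing lineages is not reported here.

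UMIs were summed per class and library. Levels have exact Poisson intervals, shares exact binomial intervals, and ratios exact conditional binomial intervals without a pseudocount (scipy 1.17.1). UMIs of 1 cell are not independent, so that intervals are too narrow where few cells carry a gene. A gene counted as past 1.5-fold when it had at least 50 UMIs in the 2 libraries. The ratio and its interval were checked on simulated counts. For shares, cells under 1000 UMIs were left out and the others thinned to 1000. The 15 alternatives concern the quality filter, how cells were classed, doublets, scaling, few cells with many UMIs and depth, and the minimum of UMIs and the fold were varied separately for the counts of genes. The closing section gives their effect.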

Additional observations from a re-analysis of the deposited data

Results flagged for a closer look

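Results are listed here where 2 sub-clusters of a class, each with at least 100 UMIs of a gene in the 2 libraries compared, stood on opposite sides of 1 by at least 1.5-fold with intervals that excluded 1. The difference between them was not tested, since each group is 1 library. Il12b in dendritic-like cells gave the widest contrasts. With the STING agonist it was 7.34 times untreated in the sub-cluster with C1q genes and 0.300 in mature-like sub-cluster 10, and under the LTβR agonist 2.88 and 0.310. In the sub-cluster with C1q genes, 1 cell held 66 of 69 STING agonist UMIs and 1 cell all 85 LTβR agonist UMIs. Under both agonists Il12b was 5.56 in mature-like sub-cluster 0 and 0.333 in sub-cluster 10. The untreated level of sub-cluster 10 rested on few cells, since 398 of its 840 UMIs lay in 2 of 35 cells, and without the 2 highest cells of each library its ratios were 0.374, 0.370 and 0.386. Ifng in T-like cells with the LTβR agonist was 2.79 in a sub-cluster led by the heat-shock genes Hspa1b and Hspa1a, from 113 and 20 UMIs, and 0.379 in the sub-cluster with myeloid genes. With the combination it was 1.92 in interferon response-like cells and 0.293 in the sub-cluster with myeloid genes. Tbx21 with the LTβR agonist was 1.65 in regulatory-like and 0.606 in cycling-like T cells. Stat4 in T-like cells was 1.78 in granzyme CD8-like and 0.323 in Th2 or ILC2-like cells with the LTβR agonist. Under both agonists Stat4 was 1.65 in the sub-cluster led by Tmem176b and Il17a and 0.303 in Th2 or ILC2-like cells. Stat4 in macrophage- or monocyte-like cells with the STING agonist was 1.78 in a sub-cluster that also carried Nkg7 and Skap1, and 0.589 in C1q-like sub-cluster 0. Il12rb2 in NK-like cells with the LTβR agonist was 1.52 in the sub-cluster led by Ccl4 and Ccl3 and 0.435 in one led by Ikzf2 and Gramd3.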

How the results depend on the processing

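Over 90 ratios, 15 alternatives gave 1237 values, of which 1064 stayed within the counting interval of the ratio reported and 169 moved, while 4 turned a ratio past 1.5-fold to the other side of 1. In all, 139 values lay on the other side of 1 from the ratio reported and 43 differed from it by over 1.5 times. Il12rb1 in macrophage- or monocyte-like cells with the LTβR agonist, for example, went from 0.510 to 0.812 with 10 CPM added, under 1.5-fold. The lower Ifng in T-like cells kept its side of 1 under all alternatives with the LTβR agonist (0.525 to 0.648) and the combination (0.613 to 0.826). With the STING agonist Ifng in T-like cells was 1.08 with no quality filter and classes by marker score, 1.06 at Leiden resolution 0.5, 1.04 with clusters weighted equally, 0.956 without the 10 cells with most UMIs and 1.05 without sub-cluster 3. With the LTβR agonist it was 0.525, 0.587 and 0.642 under the first 3 of these, 0.648 as a mean of CPM per cell and 0.629 thinned to 1000 UMIs per cell. With the combination it was 0.652 with no quality filter and classes by marker score, 0.664 with classes by marker score alone, 0.800 as a mean per cell, 0.613 with clusters weighted equally, 0.826 thinned and 0.665 with unnamed cluster 6. Ifng in NK-like cells with the STING agonist was 1.17 by marker score and 0.687 thinned. Il12b in dendritic-like cells with the combination was 1.15 with no quality filter and classes by marker score, 0.629 by marker score alone, 0.915 with clusters weighted equally and 0.691 thinned. Il12b in macrophage- or monocyte-like cells with the combination was reversed with no quality filter and classes by marker score (0.544), by marker score alone (0.575) and thinned (0.281), and Il18r1 there with the STING agonist when thinned (1.04). The number of genes past 1.5-fold for STING agonist, LTβR agonist and combination, with a minimum of 10 UMIs, became 1 and 2 in T-like cells (STING agonist and combination), 1 in NK-like (STING agonist), 2 and 2 in dendritic-like (STING agonist and LTβR agonist) and 4 and 2 in macrophage- or monocyte-like cells (STING agonist and LTβR agonist). With a minimum of 200 UMIs it became 0 in T-like (combination), 0 and 1 in dendritic-like (LTβR agonist and combination) and 1 in macrophage- or monocyte-like cells (STING agonist). At 2-fold it was 0 and 0 in T-like (LTβR agonist and combination), 1 in dendritic-like (combination) and 0, 0 and 1 in macrophage- or monocyte-like cells. The cause was not tested. Those chosen after seeing the data were adding cluster 6, and leaving out the 2 mixed sub-clusters, the shared barcodes and the 2 highest Il12b cells. No paired analysis was possible because each group is 1 library, and for the same reason no replicate could be left out. Depth limits most the genes under 50 UMIs in a class.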

Other observations

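Neutrophil-like and B- and plasma-like cells lay outside the 4 classes described. In neutrophil-like cells, which numbered 227, 304, 375 and 68, Stat4 stood at 163, 190.5, 158 and 112 CPM (untreated first, then STING agonist, LTβR agonist and combination). B- and plasma-like cells of the STING agonist library read Stat4 at 744 CPM from 59 UMIs in 15 cells, above the 249.6, 229.7 and 259 CPM of the other libraries. Unnamed cluster 6 held 8.75%, 7.49%, 9.11% and 11.3% of all Il18r1 UMIs and 0.558%, 0.838%, 2.90% and 1.34% of all Ifng UMIs.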
